A study of Mus musculus with 6 samples.

Results

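The Dock genes encode a family of exchange factors for Rac and Cdc42, the small GTPases that drive actin-based protrusion. RNA of 9 members, Dock1, Dock3, Dock4, Dock5, Dock6, Dock8, Dock9, Dock10 and Dock11, was examined among 49315 gene IDs counted. The 9 genes were matched by symbol in the authors' deposited table and by Ensembl ID in the counts. The members were selected on the Dock4 difference between the sorted groups, which stood out, so every Dock4 difference below is a description without a test. The other 8 came in by family name. All 9 were among the 23989 genes that passed the filter on low counts.

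The cells came from tumours of 4T1, a mouse mammary carcinoma line, in the fat pad of the mammary gland in female Balb/c mice aged 10 weeks. All mice carried tumours of 2 weeks and received 1E12 gold nanoparticles of 50 nm, coated with polyethylene glycol and Cy5, which were given through the tail vein 1 hour before the tumours were taken. After CD45 depletion and CD31 enrichment, sorting split the cells into an NP+ fraction (positive for nanoparticles) and an NP- fraction (negative for them). The 3 tumours were MET-106, MET-107 and MET-108. Each gave 1 NP+ and 1 NP- library. No group without nanoparticles was among the 6 libraries, so NP- cells were exposed to the particles too.

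Small GTPases such as Rac and Cdc42 are switches, and exchange factors turn them on by letting GTP replace GDP. Dock proteins do this through a domain called DHR-2, which is unrelated to the Dbl homology domain of most other exchange factors. Subfamilies A (Dock1, Dock2, Dock5) and B (Dock3, Dock4) act on Rac and work with Elmo scaffold proteins. Subfamily C, with Dock6 and Dock8, has members that act on Rac, on Cdc42 or on both, and subfamily D (Dock9, Dock10, Dock11) acts on Cdc42. In cultured human endothelial cells, DOCK4 acts downstream of VEGF and RhoG and works with DOCK9 in the outgrowth of lateral filopodia.

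Promoters of 8 of the 9 members were found among RefSeq promoter sequences (build GRCm38.p6), which run from 250 bases before to 50 bases after each start. Those of Dock4 and Dock8 are shown because these 2 members had higher levels in every NP+ library than in any NP- library, and that of Dock10 because its levels were separated the other way. Capitals mark the letters CCGGAA on either strand, 1 form of the site that ETS factors recognise, a family with many endothelial members. Other forms of that site were not searched for, so a window without capitals may still hold one. The windows are chr12:40445803-40446102 (plus strand) for Dock4, chr19:24999279-24999578 (plus strand) for Dock8 and chr1:80758504-80758803 (minus strand) for Dock10.
Dock4: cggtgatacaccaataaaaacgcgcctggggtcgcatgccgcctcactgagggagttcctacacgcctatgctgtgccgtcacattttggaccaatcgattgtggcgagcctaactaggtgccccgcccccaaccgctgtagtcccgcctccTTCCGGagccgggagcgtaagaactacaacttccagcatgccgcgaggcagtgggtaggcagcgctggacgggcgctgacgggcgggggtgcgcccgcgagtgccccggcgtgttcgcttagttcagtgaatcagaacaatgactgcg
Dock8: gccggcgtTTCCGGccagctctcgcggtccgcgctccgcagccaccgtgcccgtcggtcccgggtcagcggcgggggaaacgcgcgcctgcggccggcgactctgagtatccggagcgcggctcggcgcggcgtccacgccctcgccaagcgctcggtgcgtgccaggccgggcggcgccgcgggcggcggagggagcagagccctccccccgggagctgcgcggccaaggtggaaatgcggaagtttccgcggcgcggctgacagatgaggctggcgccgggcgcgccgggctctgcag
Dock10: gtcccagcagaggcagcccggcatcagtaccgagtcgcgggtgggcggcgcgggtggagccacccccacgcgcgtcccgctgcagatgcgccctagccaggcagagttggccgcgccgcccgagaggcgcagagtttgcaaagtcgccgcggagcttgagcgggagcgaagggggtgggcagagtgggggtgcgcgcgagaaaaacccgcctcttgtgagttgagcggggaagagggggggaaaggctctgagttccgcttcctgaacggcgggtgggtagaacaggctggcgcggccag
The letters occurred 1 time in the Dock4 window and 1 time in the Dock8 window, and in none of the windows of the other 6 members with an entry. They occur in 14.9% of all 32851 promoters in that set. The Dock4 window also held 1 match to TGANTCA, a loose form of the AP-1 site, which occurs in 7.81% of promoters. The match reads TGAATCA, while the AP-1 site proper has C or G in the middle, so it is not a full AP-1 site. Such matches are descriptions of sequence and were not tested against the RNA levels.

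Library totals ran from 41830256 to 58089600 gene counts in NP+ and from 20856410 to 44694267 in NP-. The MET-106 NP- library stood apart from the other NP- libraries. Its log2 CPM (CPM, counts scaled to library size with TMM factors) correlated at 0.945 to 0.951 with the NP+ libraries, against 0.838 and 0.876 with the other NP- libraries. The 10 endothelial markers had summed levels of 10088 to 12362 CPM over the NP+ libraries, against 6648 to 9829 CPM over the NP- libraries. All 6 libraries thus held endothelial RNA, though not only endothelial RNA, and the MET-106 NP- library had the lowest sum. Pecam1, the CD31 gene, stood at 3291 ± 500 CPM (NP+) against 2353 ± 449 CPM (NP-) (SD, n = 3 each), and Apln, a tip cell gene, at 592.3 ± 102 CPM (NP+) against 92.5 ± 53.0 CPM (NP-). Prox1, which defines lymphatic endothelium, stood at 14.4 ± 2.18 CPM (NP+) against 41.3 ± 29.5 CPM (NP-). Markers of other cells were also counted. The 10 fibroblast and mural markers summed to 21.1 to 68.5 CPM over the NP+ libraries, against 91.3 to 2454 CPM over the NP- libraries, with the highest sum in the MET-106 NP- library. Col1a1, the first of them, stood at 2.77 ± 1.65 CPM (NP+) against 224.1 ± 357 CPM (NP-). The 8 epithelial and tumour markers summed to 9.06 to 13.4 CPM over the NP+ libraries, against 15.8 to 580.8 CPM over the NP- libraries, again highest in that library, and Epcam stood at 0.434 ± 0.276 CPM (NP+) against 8.69 ± 10.5 CPM (NP-). The 6 lymphatic markers summed to 398.9 to 456.2 CPM over the NP+ libraries, against 254.7 to 1759 CPM over the NP- libraries. The 8 tip cell markers summed to 4740 to 5338 CPM over the NP+ libraries, against 1879 to 2437 CPM over the NP- libraries. Of these 8, 6 had log2 fold changes above 0 and 2 below it. Those 2, named after their values were seen, were Cxcr4 at 12 CPM (NP+) against 13.2 CPM (NP-) and Unc5b at 25 CPM (NP+) against 25.6 CPM (NP-). Kdr is in both the tip cell and the endothelial list. The 10 leukocyte and lymphocyte markers summed to 48.5 to 54.4 CPM over the NP+ libraries, against 62.2 to 97.7 CPM over the NP- libraries. Of the 9 tested, 7 had log2 fold changes below 0. The other 2, named after their values were seen, had the highest mean levels of the list. These were Coro1a at 18.2 CPM (NP+) against 16.5 CPM (NP-) and Laptm5 at 22.9 CPM (NP+) against 20.4 CPM (NP-). The 10 macrophage and neutrophil markers summed to 142.5 to 276.8 CPM over the NP+ libraries, against 82.3 to 248.4 CPM over the NP- libraries. In the NP+ libraries most of that sum was Cd14 (named after its values were seen). Cd14 was the only one of the 10 with a log2 fold change above 0, at 184.8 ± 64.9 CPM (NP+) against 66.3 ± 43.7 CPM (NP-). The other 9 had log2 fold changes below 0, with Csf1r at 2.07 ± 1.19 CPM (NP+) against 8.33 ± 1.28 CPM (NP-). No gene of the marker lists was without counts in all libraries. How much these other cells contributed to the differences below was not tested. In bulk libraries, fewer cells of a type and less RNA per cell cannot be told apart.

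Per length, Dock9 RNA was the most abundant of the 9, and Dock9, Dock1, Dock6 and Dock4 made up most of the family. Their summed share of length-scaled family RNA was 91.4 to 93.5% in NP+ libraries and 89.4 to 93.4% in NP- libraries. The mean level over the 6 libraries was 28.1 CPM per kb of exon for Dock9, 17.1 for Dock1, 15.0 for Dock6 and 10.1 for Dock4. Dock9 exceeded 91.0% of all genes tested in level per length, and Dock4 exceeded 80.0%. Dock8 (2.87 CPM per kb) and Dock11 (2.02) formed a middle tier. Dock5 (0.674), Dock10 (0.422) and Dock3 (0.303) were lowest, and Dock3 exceeded 17.6% of genes tested.

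The order held at its top and loosened below. Dock9 was above Dock1 in 6 of 6 libraries. Dock1 was above Dock6 in 5 of 6, with a mean log2 ratio of 0.30 ± 0.19 in NP+ and 0.05 ± 0.26 in NP- (SD, n = 3 each), so these neighbours were not separated beyond their spread in NP-. Dock6 and Dock4 lay close in NP+ (0.04 ± 0.09) and apart in NP- (1.34 ± 0.62). Dock8 was above Dock11 in NP+ (0.84 ± 0.39), and in NP- their ratio (0.27 ± 1.13) lay within its spread. Dock5 was above Dock10 in NP+ (2.45 ± 0.22), while in NP- their ratio (-0.43 ± 0.89) lay within its spread. Dock10 and Dock3 were not separated beyond their spread in either group.

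**Figure D1:**
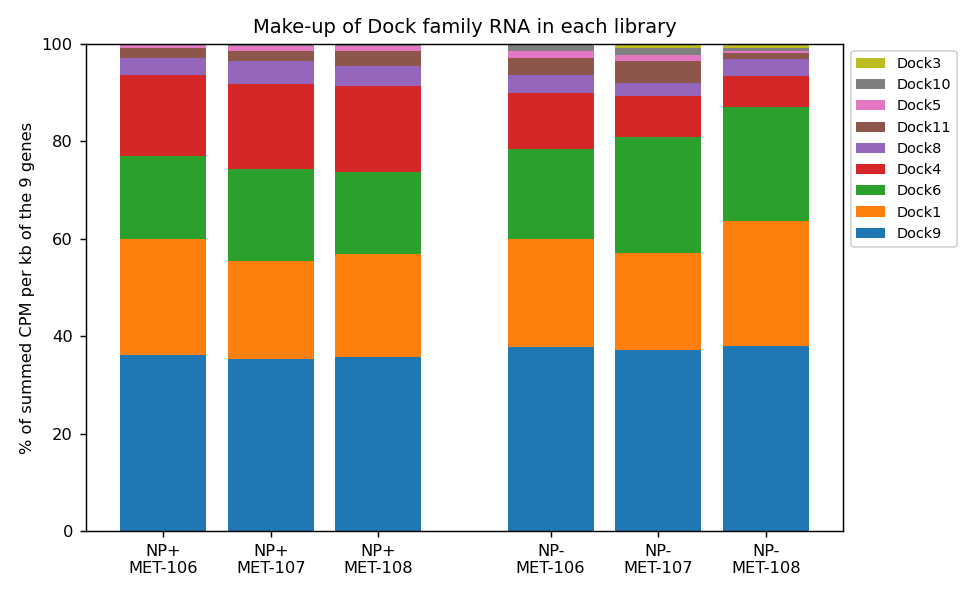
Share of each gene in the summed CPM per kb of exon of the 9 Dock genes, in percent, as stacked bars for the 3 NP+ and the 3 NP- libraries. Dock9 takes a like share in all 6 bars, while Dock4 takes 16.5 to 17.5% in NP+ and 6.37 to 11.6% in NP-.

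The make-up of the family differed mainly through Dock4. Dock9, the Cdc42 exchange factor that partners DOCK4 in human endothelial filopodia, took 35.7 ± 0.453% of length-scaled family RNA in NP+ and 37.7 ± 0.485% in NP-. Dock4 took 17.1 ± 0.556% in NP+ and 8.81 ± 2.63% in NP-. Dock6 took 17.6 ± 1.14% in NP+ and 21.8 ± 2.96% in NP-, and Dock1 21.8 ± 1.83% in NP+ and 22.6 ± 2.78% in NP-. These shares carry no test, because the Dock4 difference that chose the family enters each of them.

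Dock4, the subfamily B factor for Rac, had 131.1, 101.5 and 119.8 CPM in the NP+ libraries (MET-106, MET-107, MET-108 in this order), against 45, 50.7 and 41.7 CPM in the NP- libraries. The groups did not overlap, and the lowest NP+ level was the MET-107 one. Its mean was 117.5 ± 14.9 CPM (NP+) against 45.8 ± 4.54 CPM (NP-) (SD, n = 3 each), 2.56 times as high in NP+. The log2 fold change was 1.36 (SE 0.18), and it ran from 1.32 to 1.49 as each library was left out in turn. The log2 ratio within a tumour was 1.54 in MET-106, 1.00 in MET-107 and 1.52 in MET-108. Total-count scaling gave the smallest Dock4 log2 fold change of the other settings, 1.05. The gene (ENSMUSG00000035954) lies on GRCm38 chromosome 12 from 40446053 to 40846486, plus strand, and its counts cover 8063 bases of exon. The MET-106 NP- library, which resembled NP+ libraries over all genes, had a Dock4 level between those of the other 2 NP- libraries.

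Dock3, the other subfamily B gene and best known from neurons, had the lowest mean level of the 9 in NP+. The gene (ENSMUSG00000039716) lies on chromosome 9 from 106892825 to 107231909, minus strand. It had 0.879, 2.77 and 1.10 CPM in the NP+ libraries (MET-106, MET-107, MET-108 in this order), against 1.78, 9.52 and 10.3 CPM in the NP- libraries. The groups overlapped, since the NP+ library of MET-107 lay above the NP- library of MET-106. The log2 fold change was -2.17 (SE 0.76, adjusted p = 0.159 by edgeR's quasi-likelihood test over all genes). It passed without the MET-106 NP- library (edgeR adjusted p = 0.0435) and not without any other library (0.218 to 0.439), with the tumour block (0.139) or by limma-voom (0.348). The authors' deposited table gives an adjusted p of 0.0342. Exons of Dock3 share 1082 bases with the antisense gene 4930524O07Rik, and the library kit left no strand marks. The counts of that gene came to a mean of 0.279 CPM (NP+) and 0.326 CPM (NP-).

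**Figure D2:**
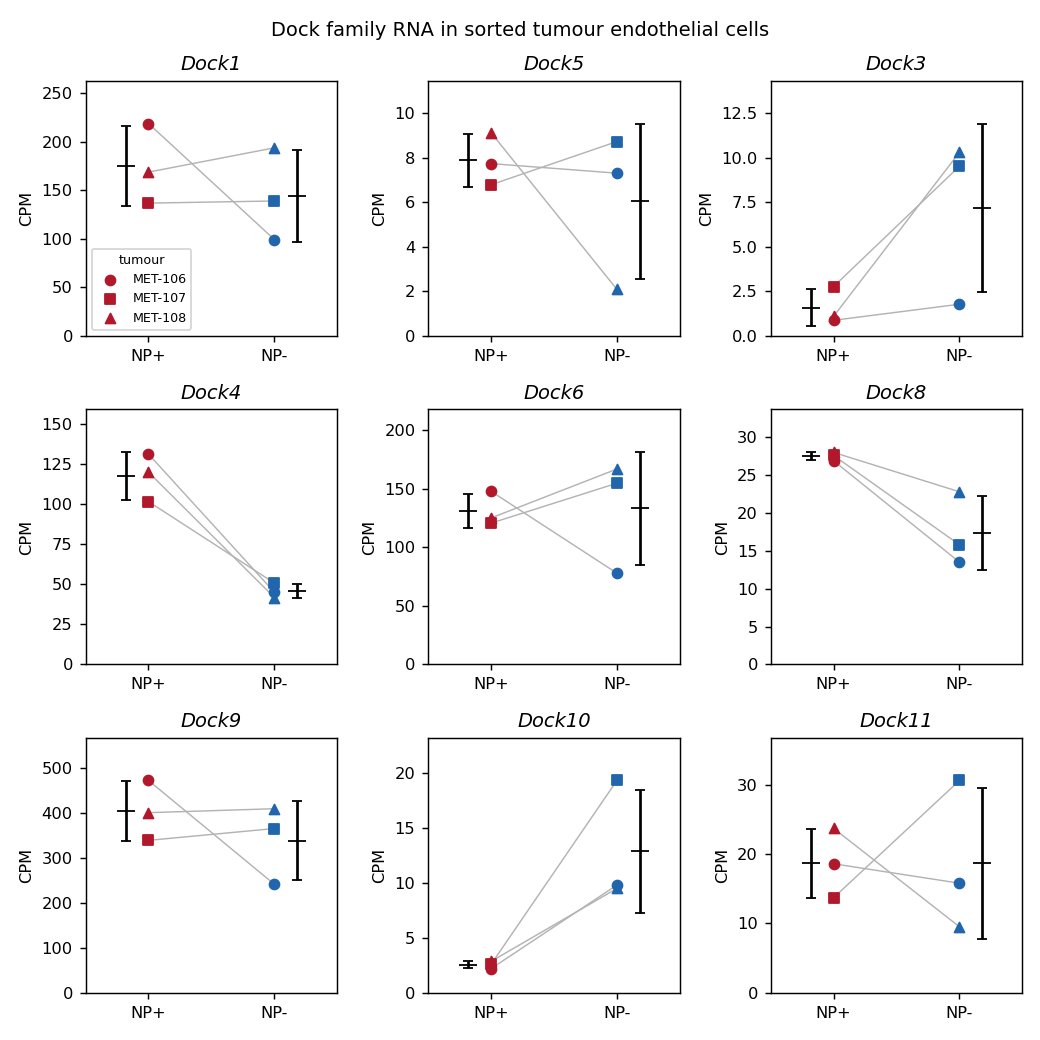
CPM of each of the 9 Dock genes in NP+ (red, left) and NP- (blue, right) libraries. Symbols mark the tumour, grey lines join libraries of 1 tumour, and black bars give mean ± SD (n = 3). The groups are separated for Dock4, Dock8 and Dock10 and overlap for the other 6.

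Among the subfamily A genes, Dock1, the Rac exchange factor that acts with Elmo and Crk in cell migration and engulfment, was abundant in both groups. The gene (ENSMUSG00000058325) lies on chromosome 7 from 134670654 to 135173639, plus strand. It had 218.6, 136.7 and 168.6 CPM in the NP+ libraries (MET-106, MET-107, MET-108 in this order), against 99.2, 138.9 and 193.6 CPM in the NP- libraries. The groups overlapped, and the tumours disagreed in direction, with 1 of 3 higher in NP+. Its log2 fold change was 0.28 (SE 0.27, adjusted p = 0.535, edgeR), and -0.03 with total-count scaling. Dock5 (ENSMUSG00000044447, chromosome 14 from 67751928 to 67933572, minus strand) is a relative of Dock1 known from osteoclasts. It had 7.74, 6.79 and 9.13 CPM (NP+) against 7.31, 8.73 and 2.09 CPM (NP-) (log2 fold change 0.38, SE 0.52, adjusted p = 0.659, edgeR). Its MET-108 NP- library lay far below the other 5 libraries. Without that library the Dock5 log2 fold change was 0.0020.

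In subfamily C, Dock8, a Cdc42 exchange factor whose loss causes an immunodeficiency in people, had nearly equal levels in the NP+ libraries. The gene (ENSMUSG00000052085) lies on chromosome 19 from 24999529 to 25202432, plus strand. It had 26.9, 27.6 and 28.0 CPM in the NP+ libraries (MET-106, MET-107, MET-108 in this order), against 13.5, 15.8 and 22.8 CPM in the NP- libraries. The groups did not overlap, and Dock8 was higher in NP+ in 3 of 3 tumours. The log2 fold change was 0.66 (SE 0.26), and its adjusted p over all genes was 0.179 (edgeR), with 0.0712 to 0.425 as each library was left out. Upper-quartile and total-count scaling gave a Dock8 log2 fold change of 0.40 and 0.37. Leukocytes also express Dock8, and the part of leukocyte RNA in its difference was not tested. Dock6 (ENSMUSG00000032198, chromosome 9 from 21799860 to 21852635, minus strand) acts on both Rac and Cdc42. It had 147.8, 120.6 and 125.0 CPM (NP+) against 77.9, 154.7 and 166.8 CPM (NP-). Its groups overlapped (log2 fold change -0.02, SE 0.28, adjusted p = 0.967, edgeR), and 10 of 15 other settings gave it the opposite sign.

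Of the subfamily D genes, Dock9 and Dock11 had overlapping groups. Dock9 (ENSMUSG00000025558) lies on chromosome 14 from 121542039 to 121797837, minus strand. It had 472.8, 339.5 and 401.1 CPM in the NP+ libraries (MET-106, MET-107, MET-108 in this order), against 241.7, 365.8 and 409.9 CPM in the NP- libraries (log2 fold change 0.25, SE 0.23, adjusted p = 0.507, edgeR). Total-count scaling turned the Dock9 log2 fold change to -0.06. Dock1, Dock6 and Dock9 each had their lowest level in the MET-106 NP- library. Within that tumour their log2 ratios were 1.14, 0.92 and 0.97, and within the other 2 tumours each lay below 0. Dock11 (ENSMUSG00000031093, chromosome X from 35888832 to 36076562, plus strand) is a relative of Dock9 known from B cells. It had 18.6, 13.7 and 23.7 CPM (NP+) against 15.8, 30.6 and 9.52 CPM (NP-) (log2 fold change 0.0048, SE 0.42, adjusted p = 0.995, edgeR). The authors' deposited table gives adjusted p values of 0.366 to 0.885 for Dock1, Dock5, Dock6, Dock9 and Dock11.

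Dock10, the third subfamily D gene and abundant in lymphocytes, was the member with the largest difference toward NP-. The gene (ENSMUSG00000038608) lies on chromosome 1 from 80501073 to 80758527, minus strand. It had 2.20, 2.59 and 2.86 CPM in the NP+ libraries (MET-106, MET-107, MET-108 in this order), against 9.80, 19.3 and 9.49 CPM in the NP- libraries. The groups did not overlap, and the MET-107 NP- library was the highest. The log2 fold change was -2.33 (SE 0.42, adjusted p = 0.0875, edgeR's quasi-likelihood test). The call depended on the setting. The adjusted p was 9.3e-06 by DESeq2, and by edgeR 0.0136 without the low-count filter and 0.0270 and 0.0382 without the MET-106 and MET-108 NP- libraries. It was 0.0923 by limma-voom, and by edgeR 0.0927 with RLE scaling, 0.0974 with the tumour block, 0.182 without the MET-107 NP- library, and 0.395, 0.235 and 0.399 without the NP+ library of MET-106, MET-107 and MET-108. A filter of 5 CPM in 3 libraries gave 0.0415, but Dock10 passed that filter only through its 3 NP- libraries, so this value is no support. DESeq2 called 938 genes higher and 3038 lower in all. The authors' deposited table gives 3.08e-05 for Dock10. Ptprc, the CD45 gene, stood at 4.48 ± 0.997 CPM (NP+) against 13.9 ± 10.4 CPM (NP-). The part of leukocyte RNA in the Dock10 difference was not tested.

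**Figure D3:**
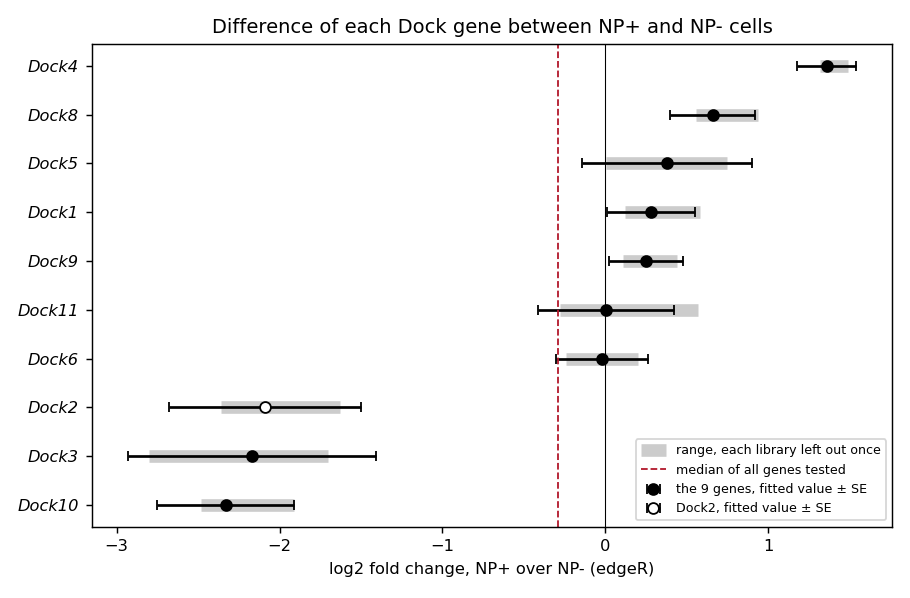
Fitted log2 fold change (NP+ over NP-) with its SE for the 9 Dock genes (filled) and for Dock2 (open). Grey bands give the range as each library is left out, and the dashed line marks the median of all genes tested, -0.29. Dock4 lies at 1.36, Dock10 at -2.33 and Dock3 at -2.17, and the others except Dock2 and Dock8 lie between -0.02 and 0.38.

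Over all 23989 genes, 0.0125% passed an adjusted p of 0.05 as higher in NP+ and 0.0167% as lower (edgeR), 3 and 4 genes. With tumour as a block the counts were 2 higher and 13 lower. None of the 8 members besides Dock4 passed in either direction. At an unadjusted p under 0.05, 1 of the 8 (Dock8) was higher, where 8.01% of all genes were, and 2 of the 8 (Dock3 and Dock10) were lower, where 15.4% of all genes were. That split of all genes, 1922 higher and 3684 lower, became 610 higher and 5044 lower with total-count scaling and 785 higher and 4712 lower with upper-quartile scaling, under both of which Dock8 no longer counted. Groups did not overlap for 1 of the 8 toward NP+ and for 1 of the 8 toward NP-, beside 13.3% and 15.6% of all genes. These shares lie near the background and are no result about the family. DESeq2 gave Dock3 an adjusted p of 0.0325. Without the MET-106 NP- library, edgeR called Dock3 and Dock10 lower, where 4.86% of 27794 genes were called lower and 3.48% higher.

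Dock2, a subfamily A gene outside the 9 and the Rac exchange factor of lymphocyte migration, was lower in NP+ in 3 of 3 tumours. It had 0.933, 2.15 and 2.08 CPM in the NP+ libraries (MET-106, MET-107, MET-108 in this order), against 3.63, 11.2 and 7.23 CPM in the NP- libraries (log2 fold change -2.09, SE 0.59, adjusted p = 0.130, edgeR). Dock2, Dock3 and Dock10, all of low level per length, thus had NP- levels above their NP+ levels in every tumour.

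The low members were set beside olfactory receptor genes, which endothelial cells are not known to use. Over 1405 such genes, counts amounted to 0.0327, 0.1 and 0.0583 CPM per kb in the NP+ libraries (MET-106, MET-107, MET-108 in this order), against 0.0872, 0.422 and 0.337 CPM per kb in the NP- libraries, a ratio of means of 4.42. The ratio of mean NP- to mean NP+ levels was 5.05 for Dock10, 4.54 for Dock3 and 4.27 for Dock2. Relative to a gene of the same length at the olfactory density, Dock10 stood at 2.19 times in NP+ and 2.5 times in NP-. Dock3 stood at 1.72 times in NP+ and 1.76 times in NP-, and Dock2 at 2.36 times in NP+ and 2.28 times in NP-. Once expressed this way, the NP+ and NP- libraries overlapped for these 3 genes. The 95th percentile of single olfactory genes in NP- was 0.923 CPM per kb, above the mean NP- level of Dock10 (0.705), Dock3 (0.497) and Dock2 (0.643). The median of single olfactory genes in NP- was 0.204 CPM per kb, below all 3 of these levels. The part of this background in the 3 differences was not tested beyond these ratios.

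**Figure D4:**
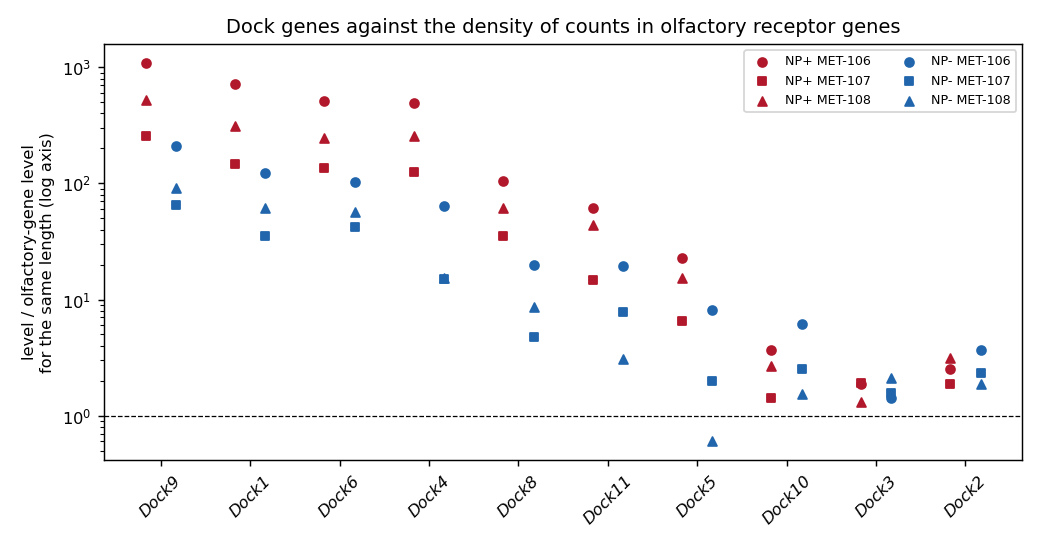
Level of each Dock gene divided by the level that the density of counts in olfactory receptor genes gives for its length, on a log axis, for NP+ (red) and NP- (blue) libraries, with symbols for the tumour. Dock9, Dock1, Dock6 and Dock4 lie at 14.9 times or more in every library, while Dock10, Dock3 and Dock2 lie between 1.31 and 6.15 times in both groups.

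The members with high levels stood far above that density. Dock4 was at 229 times the olfactory level in NP+ and 20.2 times in NP-, and Dock9 at 479 times in NP+ and 90.8 times in NP-. Dock8 was at 55.2 times in NP+ and 7.89 times in NP-. Dock5, among the lowest members per length, did not stand far above that density in NP-. It was at 12.0 times in NP+ and 2.07 times in NP-, where Dock10 was at 2.5 times. The MET-108 NP- library of Dock5 lay below that density, at 0.6 times.

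Over the 6 libraries, the genes whose log2 CPM followed Dock4 most closely among 10824 others with a mean of at least 5 CPM were Xpo6, Pofut2, Mkrn2, Fgfr1 and Rpn1. Their Pearson r was 0.996, 0.996, 0.995, 0.995 and 0.994. The 6 libraries share 3 tumours and the NP+ to NP- split, so these values only describe likeness. Xpo6, an exportin gene for actin, stood at 52.8 ± 5.82 CPM (NP+) against 24.9 ± 2.56 CPM (NP-) (SD, n = 3 each), and Fgfr1, a growth factor receptor gene, at 115.7 ± 8.34 CPM (NP+) against 36.4 ± 4.18 CPM (NP-). Within the family, r with Dock4 was 0.784 for Dock8, 0.511 for Dock9, 0.105 for Dock6 and -0.906 for Dock10.

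Other genes of the Rac and Cdc42 pathway were read from 5 lists. Of 12 partners of Dock proteins, 3 were higher at an unadjusted p under 0.05 and 0 lower, with a median log2 fold change of 0.31. Over all genes, 8.01% were higher and 15.4% lower at that p, with a median of -0.29, and these shares stand beside the counts of the other lists too. The median of all genes was -0.02 among genes with at least 5 CPM in 3 libraries, in a fit that also lowered Dock4 to 1.08, and -0.59 with total-count scaling, under which 610 genes were higher and 5044 lower. List medians were not recomputed in those fits, so the lists are not shown to differ from other genes of like level. Crk, an adaptor that links Dock1 to focal adhesions, stood at 207.5 ± 17.9 CPM (NP+) against 78.9 ± 31.1 CPM (NP-) (log2 fold change 1.39, adjusted p = 0.0903, edgeR). Bcar1, the p130Cas scaffold that binds Crk, stood at 123.7 ± 4.70 CPM (NP+) against 68.8 ± 6.48 CPM (NP-) (0.85, adjusted p = 0.0911). Rhog, the GTPase that binds Elmo, stood at 137.7 ± 1.56 CPM (NP+) against 98.6 ± 16.5 CPM (NP-) (0.48, adjusted p = 0.168). The groups did not overlap for these 3 genes, which were named for having the smallest p in the list. Over all genes, 13.3% did not overlap toward NP+. Elmo1 (named after its values were seen) stood at 208.8 ± 36.3 CPM (NP+) against 160.2 ± 34.7 CPM (NP-) (adjusted p = 0.299), and Arhgef26, the exchange factor for RhoG, at 27.6 ± 6.10 and 28.8 ± 16.5 CPM (adjusted p = 0.939).

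Of 9 GTPase genes tested among 11, 4 were higher at an unadjusted p under 0.05 and 1 lower (beside 8.01% and 15.4% of all genes), with a median log2 fold change of 0.37. The lower one was Rhou (log2 fold change -3.03, adjusted p = 0.125, edgeR), named after its values were seen. Rac1, the main Rac of endothelium, stood at 55.2 ± 13.7 CPM (NP+) against 35.3 ± 3.83 CPM (NP-) (0.65, adjusted p = 0.162, edgeR). Rap1a stood at 177.5 ± 11.4 CPM (NP+) against 109.7 ± 29.5 CPM (NP-) (0.69, adjusted p = 0.145), and its relative Rap1b at 154.7 ± 44.5 CPM (NP+) against 86.6 ± 22.4 CPM (NP-) (0.84, adjusted p = 0.146). The groups did not overlap for these 3 genes either, named by the same rule (beside 13.3% of all genes toward NP+).

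Of 23 effectors, 7 were higher and 2 lower at an unadjusted p under 0.05 (beside 8.01% and 15.4% of all genes), with a median log2 fold change of 0.37. Pak2, a kinase switched on by Rac and Cdc42, stood at 264.0 ± 32.7 CPM (NP+) against 100 ± 30.2 CPM (NP-) (1.40, adjusted p = 0.0875, edgeR). Pak4, a Cdc42 effector kinase, stood at 72.2 ± 12.6 CPM (NP+) against 29.8 ± 9.42 CPM (NP-) (1.28, adjusted p = 0.0992). Nckap1, a subunit of the WAVE complex that links Rac to actin branching, stood at 158.0 ± 8.41 CPM (NP+) against 95.9 ± 33.1 CPM (NP-) (0.72, adjusted p = 0.167). Wasf2, the WAVE protein of endothelium, stood at 111.8 ± 4.80 CPM (NP+) against 114.0 ± 25.8 CPM (NP-) (-0.03, adjusted p = 0.941). The 2 lower effectors, named after their values were seen, were Pak3 (log2 fold change -2.07, adjusted p = 0.165) and Wasf3 (-3.85, adjusted p = 0.152), and their groups overlapped.

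Of 27 exchange factors outside the Dock family, 5 were higher and 5 lower at an unadjusted p under 0.05 (beside 8.01% and 15.4% of all genes), with a median log2 fold change of -0.02. Prex1, a Rac exchange factor, stood at 52.4 ± 5.58 CPM (NP+) against 26.1 ± 9.13 CPM (NP-) (1.01, adjusted p = 0.126, edgeR). Plekhg1 stood at 190.9 ± 40.6 CPM (NP+) against 120.9 ± 19.4 CPM (NP-) (0.66, adjusted p = 0.148), and Spata13 at 196.0 ± 36.8 CPM (NP+) against 117.4 ± 37.2 CPM (NP-) (0.74, adjusted p = 0.165). Kalrn, best known from neurons, stood at 7.76 ± 0.723 CPM (NP+) against 15.7 ± 7.06 CPM (NP-) (-1.02, adjusted p = 0.181), and its relative Trio at 15.7 ± 2.48 CPM (NP+) against 25.8 ± 9.07 CPM (NP-) (-0.72, adjusted p = 0.212). The groups overlapped for Kalrn and Trio. The other 3 lower genes had low levels and are named after their values were seen. Tiam1, a Rac exchange factor, stood at 0.870 ± 0.158 CPM (NP+) against 5.29 ± 0.672 CPM (NP-) (-2.60, adjusted p = 0.0941), and its relative Tiam2 at 1.05 ± 0.135 CPM (NP+) against 6.63 ± 2.34 CPM (NP-) (-2.65, adjusted p = 0.0893). The groups did not overlap for Tiam1 and Tiam2 (beside 15.6% of all genes toward NP-), and they overlapped for Vav1 (-2.49, adjusted p = 0.192).

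Of 16 GTPase-activating proteins and GDIs tested, which hold Rac and Cdc42 in check, 4 were higher and 2 lower at an unadjusted p under 0.05 (beside 8.01% and 15.4% of all genes), with a median log2 fold change of 0.32. Arhgap31, mutated like human DOCK6 in Adams-Oliver syndrome, stood at 376.2 ± 56.1 CPM (NP+) against 222.0 ± 73.6 CPM (NP-) (0.76, adjusted p = 0.148, edgeR). Bcr stood at 142.6 ± 40.2 CPM (NP+) against 88.1 ± 12.8 CPM (NP-) (0.70, adjusted p = 0.151), and Arhgdia, a GDI that keeps GTPases in the cytosol, at 871.3 ± 47.2 CPM (NP+) against 612.5 ± 90.8 CPM (NP-) (0.51, adjusted p = 0.157). The 2 lower genes had low levels and are named after their values were seen. Arhgap24 stood at 0.769 ± 0.412 CPM (NP+) against 7.75 ± 2.40 CPM (NP-) (-3.32, adjusted p = 0.0875). Arhgap15 stood at 1.19 ± 0.541 CPM (NP+) against 6.84 ± 4.49 CPM (NP-) (-2.51, adjusted p = 0.124). Groups did not overlap for either (beside 15.6% of all genes toward NP-). Of the genes with at least 5 CPM on average, Arhgdib, the GDI of blood cells, stood at 29.8 ± 1.86 CPM (NP+) against 50.7 ± 26.9 CPM (NP-) (-0.76, adjusted p = 0.279), Chn1 at 7.54 ± 0.757 CPM (NP+) against 13.1 ± 6.19 CPM (NP-) (-0.80, adjusted p = 0.279), and Arhgap22 at 7.91 ± 2.10 CPM (NP+) against 11.6 ± 6.67 CPM (NP-) (-0.55, adjusted p = 0.471). The 10 endothelial markers had a median log2 fold change of 0.42, with 10 of 10 above 0.

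**Figure D5:**
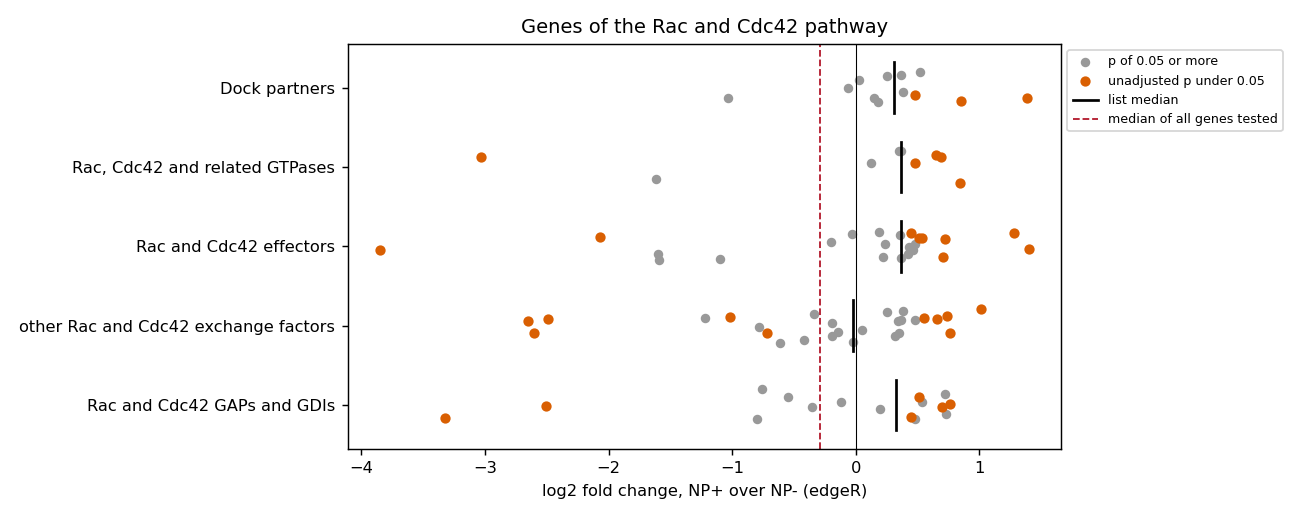
Log2 fold change (NP+ over NP-) of each tested gene in 5 lists of the Rac and Cdc42 pathway, with orange points for an unadjusted p under 0.05, black bars for list medians and a dashed line for the median of all genes. List medians run from -0.02 to 0.37, and the orange points left of 0 are genes with mean NP- levels of 1.83 to 25.8 CPM.

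No gene of these lists passed an adjusted p of 0.05 over all genes, and the lowest was 0.0875 (edgeR). Genes counted as higher and as lower differed in how far they stood above the olfactory density in NP-. The higher ones stood at 9.02 to 962.0 times that density, and the lower ones at 1.25 to 7.97 times. Both sets were formed by p and direction in these same data, and the mean density was itself 4.42 times as high in NP- as in NP+. The contrast is thus not independent of how the sets were formed, and it was not tested.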

How the data were processed

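RNA from sorted NP+ and NP- cells of 3 tumours was made into cDNA with SMART-Seq v4, a kit without strand marks or molecular identifiers, and sequenced in pairs, per the labels' protocols. Per the submitters' processing notes, reads were handled with STAR 2.5.2b, Trimmomatic 0.036 and featureCounts (from Subread 1.5.2), the build was GRCm38 (mm10), and DESeq2 was used. Which annotation release, strand setting and multimapping rule applied is not given in the sources used here. The deposited counts are raw reads per gene, with the authors' exonic length beside each. The authors' deposited table holds DESeq2 normalized values (a signal in units of scaled counts), p-values and log2 fold changes with NP- on top. Its normalized values gave back whole reads for 100% of 156426 values (within 0.01 of a read), and a test on those reads called 3 genes higher and 4 lower.

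Counts were tested with edgeR 4.0.16 (quasi-likelihood, TMM, filterByExpr with a minimum count of 10, R 4.3.3) for NP+ against NP- without a block, with Benjamini-Hochberg adjustment over 23989 genes and a threshold of 0.05. SE is the size of the log2 fold change divided by the square root of F. CPM uses TMM factors, and CPM per kb divides by exonic length. The fit was tested on simulated data. DESeq2 1.42.0, limma-voom 3.58.1, other scalings and filters, a tumour block, raw-count shares and the leaving out of each library were alternatives. The 2 libraries of a tumour come from the same mouse, so tumour numbers pair them, and the correlations of their deviations from group means were 0.282, 0.214 and 0.0209. Library totals of 20856410 to 58089600 limit precision only for the low genes. The p-values rest on the same 3 mice in both groups, and those of the main fit do not use this pairing.

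Genes named were the members, Pecam1, Ptprc, up to 3 genes per direction of each pathway list with the smallest p and at least 5 CPM on average, the 5 genes most like Dock4 and the first gene of each marker list. Gene symbols came from the reference for 48970 of 49315 IDs. Coordinates are those of the count file. Promoters are from RefSeq. The members and lists were chosen with earlier results of these data known. Some genes that this rule names are not reported here.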

Additional observations from a re-analysis of the deposited data

How the results depend on the processing

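Each log2 fold change was recomputed under 14 planned settings and 1 chosen after seeing the data (recovered reads). Dock4, Dock5, Dock8 and Dock10 kept their sign in all of them, as did Dock3 in all but the 5 CPM filter, which drops it. Dock1 became -0.0045 among genes of at least 5 CPM and -0.03 with total-count scaling. Dock9 became -0.03, -0.06 and -0.01 with the 5 CPM filter, total-count and upper-quartile scaling, and Dock11 -0.29, -0.32 and -0.24. Dock6 became 0.11 with DESeq2, 0.05 with RLE scaling, 0.09 with limma-voom, 0.22 without a filter and 0.04 with the tumour block. As each library was left out, Dock6 ran from -0.24 to 0.20 and Dock11 from -0.28 to 0.57. The median over all genes was -0.29, and it ran from -0.80 (DESeq2) to -0.02 (5 CPM filter), with -0.53 and -0.59 by upper-quartile and total-count scaling, -0.15 with the block and -0.11 by limma-voom.

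Genes called higher numbered 3, against 938 with DESeq2, 18 with the 5 CPM filter, 12 with limma-voom and 525 without a filter. Genes called lower numbered 4, against 3038 with DESeq2, 87 with the 5 CPM filter, 686 without a filter, 9 with total-count scaling, 18 with upper-quartile scaling and 13 with tumour as the replicate block. The block changed no member's call. As each library was left out, edgeR called 0 to 968 higher and 0 to 1352 lower. The counts of 0 came without any 1 NP+ library or the NP- library of MET-107, where 1113 to 1701 genes were higher and 2289 to 3739 lower at an unadjusted p under 0.05, and DESeq2 was not run on those subsets. Without the NP- library of MET-106 the calls were 968 and 1352, and without that of MET-108 they were 113 and 177. The cause was not tested. Of the members besides Dock4, 1 was higher at an unadjusted p under 0.05, and 0 with the 5 CPM filter, total-count or upper-quartile scaling, and 0 to 2 as libraries were left out. Of the same members 2 were lower, and 1 with the 5 CPM filter (which drops Dock3) or limma-voom, and 1 to 2 as libraries were left out. Shares of family RNA moved by more than 1 SD in 11 of 18 values when counts were not divided by length. Leaving out 1 of 3 libraries cannot move a mean share by 1 SD, so those values say nothing about stability.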
